A study of Arabidopsis thaliana with 12 samples.

Results

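The cell cycle and DNA replication genes described here are 41 Arabidopsis thaliana loci chosen by locus identifier from the 33602 genes counted in each library. They comprise 6 A-type, 8 B-type and 5 D-type cyclins, 5 cyclin-dependent kinases (CDKs), the 6 subunits MCM2 to MCM7, the licensing factors CDC6 and CDT1A, the sliding clamp genes PCNA1 and PCNA2, 3 Aurora kinases, HIK and KNOLLE of cytokinesis, and both CDC20 activators. All 41 passed the filter on low counts and were tested, and the least abundant, CYCA2;1, still had 12 to 39 reads in each library. The RNA came from primary inflorescences of 3 genotypes, each sampled as open flowers and as floral buds, with 2 libraries for each of the 6 groups. The ask1 plants were mutant for ASK1, an Arabidopsis SKP1-like gene, and the word Ds, a name used for the maize Dissociation transposon, stood in their titles. The ASK1 WT plants carried the wild-type allele of that gene, and Col-0 was the standard laboratory accession. Col-0 was given as the strain of all 12 libraries. All plants grew under 16 h of light at 21 °C and 8 h of darkness at 19 °C and were sampled 5 h after dawn. The labels give neither bud stages nor the number of plants pooled. They also do not say whether the 2 libraries of a group came from separate plants, so the p-values below measure the spread between these libraries, which may be technical.

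Cell division in plants runs on CDKs whose activity depends on cyclin partners. D-type cyclins respond to hormones and sugar and act with CDKA on the retinoblastoma protein, which releases E2F transcription factors that switch on replication genes. CDC6 and CDT1A load the ring of MCM proteins onto replication origins, where it becomes the helicase that opens the DNA, and PCNA clamps the polymerases to it. B-type cyclins and B-type CDKs belong to G2 and mitosis, and MYB3R factors drive many of their genes through the mitosis-specific activator (MSA) element. Aurora kinases act on mitotic chromosomes and the spindle, HIK and KNOLLE build the new cell wall, and CDC20 turns on the anaphase-promoting complex. SKP1 proteins such as ASK1 join F-box proteins to the SCF ubiquitin ligase, which in plants marks several cell cycle regulators for breakdown.

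The letters upstream of these genes are shown first because most MCM genes and many, though not all, mitotic genes differ in them. Windows of 300 bases before each annotated start were read from the RefSeq TAIR10.1 genome. They were searched on both strands for the E2F spellings TTTCCCGC, TTTCGCGC, TTTGCCGC and TTTGGCGC, and for AACGG, the core of the MSA element. An E2F spelling stood in 5 of 6 MCM windows (83.3%) and in 6 of the 41 windows (14.6%), against 432 of the 27443 windows of all protein-coding genes (1.57%). The stretches around the 6 matches are written in the direction of each gene with the match in capitals. The MCM2 stretch is chr1:16970184-16970213, and its match begins 14 bases before the start.
MCM2: caaattggcgccaataTTTCCCGCctaatc
MCM3: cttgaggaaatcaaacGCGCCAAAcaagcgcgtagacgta
MCM4: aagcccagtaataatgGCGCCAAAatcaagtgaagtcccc
MCM5: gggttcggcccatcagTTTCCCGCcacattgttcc
MCM6: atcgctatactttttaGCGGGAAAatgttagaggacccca
CYCD3;3: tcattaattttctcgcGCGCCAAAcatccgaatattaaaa
The others lie at chr5:18773853-18773892 (MCM3, reverse strand), chr2:7130741-7130780 (MCM4, reverse strand), chr2:3527501-3527535 (MCM5, reverse strand), chr5:18010690-18010729 (MCM6, reverse strand) and chr3:18566915-18566954 (CYCD3;3, reverse strand). The window of MCM7 held no such match and overlapped exons of the neighbouring gene STP7. A match is a description of the letters and not evidence of a bound factor, and a window without one says nothing about the factor.

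The core AACGG, or CCGTT on the other strand, stood in 7 of 8 B-type cyclin windows (87.5%), and 6 of the 8 (75.0%) held at least 2. It also stood in 4 of 6 A-type cyclin windows (66.7%), 3 of them (50.0%) with at least 2, in 2 of 3 Aurora kinase windows and in both cytokinesis ones. In the other roles it stood in 1 of 5 D-type cyclin, 1 of 5 CDK, 1 of 2 CDC20 and 0 of 4 licensing and clamp windows. Of the MCM windows 1 of 6 held it (16.7%), that of MCM7. The windows of CYCB1;4, CDKB2;1, AUR3 and CDC20.2 held no core. Over all 41 windows 19 (46.3%) held it and 10 (24.4%) held at least 2, against 6430 (23.4%) and 1243 (4.53%) of the 27443 protein-coding windows. The 3 whole windows below, of a mitotic kinesin and 2 B-type cyclins, each hold at least 2 cores, shown in capitals. They lie at chr1:6324379-6324678 (HIK, reverse strand), chr5:1861704-1862003 (CYCB1;2, reverse strand) and chr2:7663755-7664054 (CYCB2;1, forward strand).
HIK: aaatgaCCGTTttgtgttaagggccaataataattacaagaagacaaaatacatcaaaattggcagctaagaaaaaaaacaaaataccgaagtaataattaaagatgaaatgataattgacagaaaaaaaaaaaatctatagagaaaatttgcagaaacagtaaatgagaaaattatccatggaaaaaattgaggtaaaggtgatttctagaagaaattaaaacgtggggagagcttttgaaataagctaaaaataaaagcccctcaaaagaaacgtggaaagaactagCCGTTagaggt
CYCB1;2: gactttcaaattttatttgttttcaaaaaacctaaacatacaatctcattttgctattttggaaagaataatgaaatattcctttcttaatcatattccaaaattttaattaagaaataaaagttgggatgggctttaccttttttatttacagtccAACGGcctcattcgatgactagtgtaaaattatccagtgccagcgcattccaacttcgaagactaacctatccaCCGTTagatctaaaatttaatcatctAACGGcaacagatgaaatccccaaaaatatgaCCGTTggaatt
CYCB2;1: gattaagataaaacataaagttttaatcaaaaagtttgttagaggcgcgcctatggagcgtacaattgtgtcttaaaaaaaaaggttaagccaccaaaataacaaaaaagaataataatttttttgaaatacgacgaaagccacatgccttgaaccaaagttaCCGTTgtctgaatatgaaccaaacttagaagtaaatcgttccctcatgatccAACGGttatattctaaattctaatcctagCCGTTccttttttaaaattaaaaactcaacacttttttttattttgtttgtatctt
HIK had 2 cores far apart, 1 near the beginning of its window and 1 within the last 11 bases, and the 2 cyclins had 4 and 3.

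**Figure D1:**
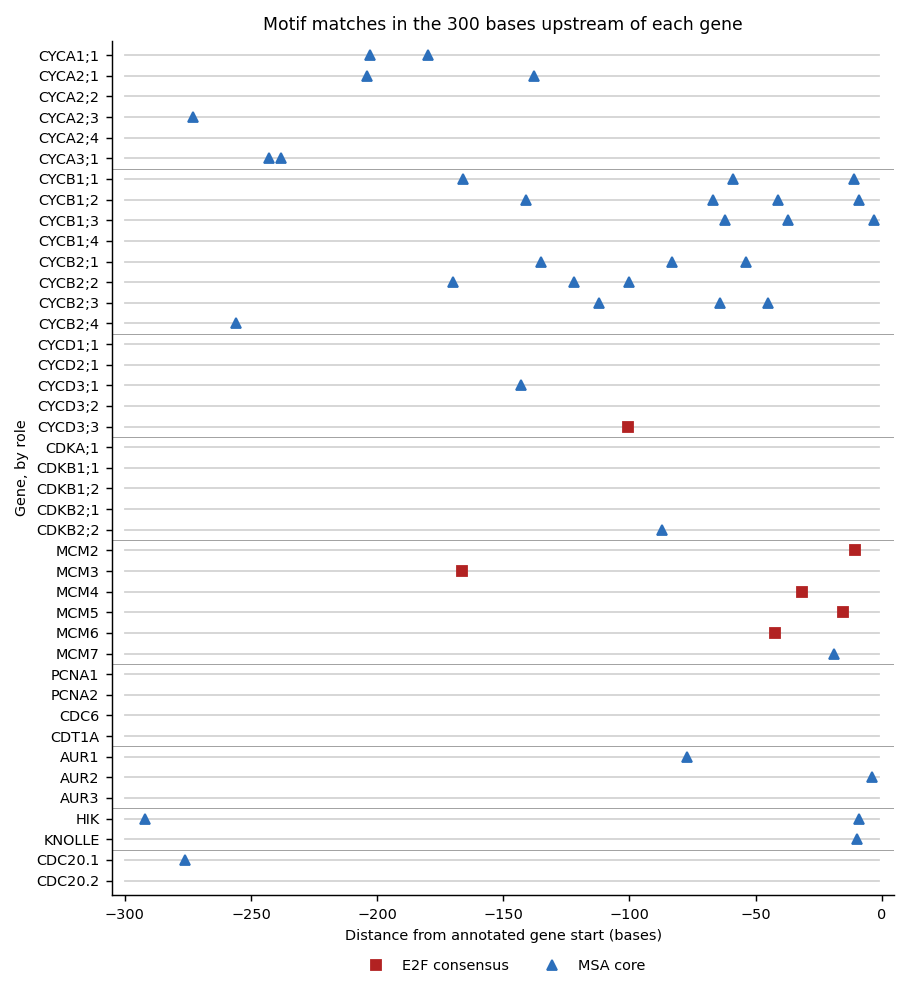
Positions of E2F spellings and MSA cores in the 300 bases before the annotated start of each of the 41 genes, one row a gene, with distance from the start in bases on the horizontal axis. E2F matches fall in 5 of the 6 MCM rows, and MSA cores fall in 7 of 8 B-type and 4 of 6 A-type cyclin rows.

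Before the results, 4 facts of the series bear on them. ASK1 itself had 50.9 and 29.6 CPM in ask1 open flowers, against 289 and 299 CPM in ASK1 WT and 307 and 310 CPM in Col-0 open flowers. In buds it had 10.1 and 29 CPM in ask1, against 247 and 250 CPM in ASK1 WT and 256 and 258 CPM in Col-0. The ask1 libraries thus stood apart from both controls in each tissue. ASK1 levels cannot check which control a library came from, as ASK1 WT and Col-0 were alike, nor its tissue. Libraries held 13780265 to 23426466 reads in genes, and CPM are read counts per 1000000 of that total after TMM scaling. The 2 ask1 open flower libraries stood apart from each other, with a median difference of 0.407 on the log2 scale over all tested genes, against 0.111 to 0.161 in the other 5 groups. In replicate 1 of that group, longer genes were lower, with a Spearman correlation of -0.511 across genes between exon length and its deviation from the mean of the open flower libraries. The corresponding value was 0.171 in replicate 2 and between -0.087 and 0.279 in the other libraries. Among the 41 genes 35 lay below the mean of the 4 control open flower libraries in ask1 replicate 1 and 39 in replicate 2, with 35 below it in both. The 6 pollen markers summed to 440 to 479 CPM in ask1 open flowers, against 3660 to 4130 CPM in ASK1 WT and 4370 to 4510 CPM in Col-0 ones, and all 6 were lower in all 4 comparisons of ask1. In bulk tissue fewer cells of a type and less RNA per cell cannot be told apart.

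In open flowers most of these genes were lower in ask1. Against ASK1 WT, 25 of 41 were called (30% of all 21890 tested genes), of which 24 fell (15.9% of all genes) and 1 rose (14.1% of all genes), by edgeR's quasi-likelihood test with Benjamini-Hochberg adjusted p under 0.05 over all tested genes. Against Col-0, 20 were called (27.2% of all genes), of which 19 fell (14.3%) and 1 rose (12.9%). The 2 comparisons share the ask1 libraries, and 18 genes fell in both (12.8% of all genes) and 1 rose in both (10.5%). The median log2 fold change of the 41 was -0.55 against ASK1 WT and -0.44 against Col-0, beside 0.01 over all genes in both. For 28 of the 41 both ask1 libraries lay below all 4 control libraries (24.5% of all genes), and for 2 both lay above (25.2% of all genes). Their summed level was 751 to 826 CPM in ask1 open flowers, against 1170 to 1210 CPM in ASK1 WT and 1110 to 1160 CPM in Col-0. With any single library left out, 17 of the 25 calls against ASK1 WT and 13 of the 20 against Col-0 held each time. When only the 4 libraries compared were fitted, the calls came to 8 and 6, with fewer libraries to estimate the spread. The shares of all genes moved as well. Against ASK1 WT they ran from 14.4%, without replicate 1 of its open flowers, to 51.8%, without replicate 2 of ask1 open flowers, and the share of the 41 was higher in all 12 fits without 1 library. Against Col-0 they ran from 12.9%, without replicate 2 of its open flowers, to 50.3%, without replicate 2 of ask1 open flowers, where the share of the 41 was 46.3%, and the 41 had the higher share in the other 11 fits. With only the 4 libraries compared the shares were 19.5% and 14.6% of the 41, against 10.4% and 8.18% of all genes.

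**Figure D2:**
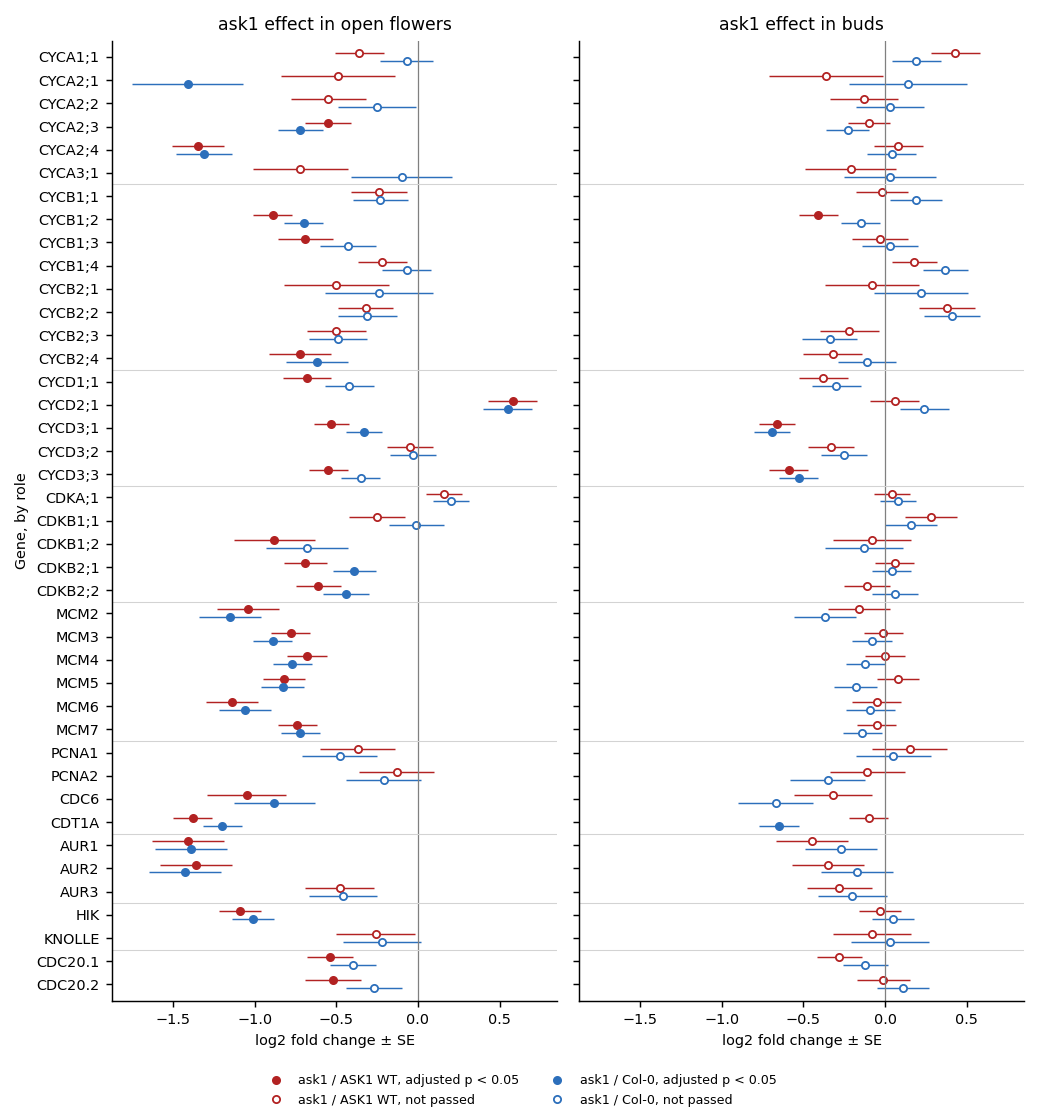
Log2 fold change of ask1 over each control for all 41 genes, with bars of 1 SE, in open flowers (left) and buds (right), where red is against ASK1 WT, blue against Col-0, and filled points have adjusted p under 0.05. In open flowers most points lie left of 0 (medians -0.55 and -0.44), and in buds they lie around it (medians -0.08 and -0.09).

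All 6 MCM subunits fell in ask1 open flowers against both controls. MCM2 (AT1G44900) had 21.9 and 34.9 CPM in ask1 open flowers, against 57.3 and 59.8 CPM in ASK1 WT and 62.8 and 63.1 CPM in Col-0. MCM3 (AT5G46280) had 23.4 and 25.1 CPM in ask1, against 43.3 and 39.7 CPM in ASK1 WT and 44.5 and 45 CPM in Col-0. MCM4 (AT2G16440) had 32.3 and 34.6 CPM in ask1, against 52.6 and 54.5 CPM in ASK1 WT and 56.6 and 57.7 CPM in Col-0. For these 3 the ask1 libraries were well below every control, and the 4 control libraries of each lay close together. MCM5 (AT2G07690) had 28.7 and 34.3 CPM in ask1, against 55.1 and 56.1 CPM in ASK1 WT and 55.7 and 56.4 CPM in Col-0. MCM6 (AT5G44635), the least abundant subunit, had 11.8 and 13.6 CPM in ask1, against 27.3 and 29 CPM in ASK1 WT and 27.4 and 25.6 CPM in Col-0. MCM7 (AT4G02060) had 37.4 and 41.4 CPM in ask1, against 62 and 70.1 CPM in ASK1 WT and 65.7 and 64.6 CPM in Col-0. Again the ask1 and control libraries did not overlap for any of the 3.

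The largest fold change against ASK1 WT among the subunits was that of MCM6, at -1.14 ± 0.16 on the log2 scale (SE, edgeR adjusted p = 0.000445), and it was -1.06 ± 0.16 against Col-0 (adjusted p = 0.000897). MCM4 changed least against ASK1 WT, by -0.68 ± 0.12 (adjusted p = 0.00184), and by -0.77 ± 0.12 against Col-0 (adjusted p = 0.000962). The other 4 lay between -1.04 and -0.74 against ASK1 WT and between -1.15 and -0.72 against Col-0. In buds the MCM genes showed no call, with fold changes of -0.16 to 0.08 against ASK1 WT and -0.37 to -0.08 against Col-0. Among the subunits, MCM6 had 35.2 and 25.5 CPM in ask1 buds, against 30.3 and 32.6 CPM in ASK1 WT and 30.7 and 34.3 CPM in Col-0 buds. MCM2 had 63.1 and 51.3 CPM in ask1 buds, against 60.7 and 67.5 CPM in ASK1 WT and 71.5 and 76.6 CPM in Col-0, and MCM3 had 50.7 and 41.6 CPM in ask1, against 45.1 and 47.6 CPM in ASK1 WT and 49.7 and 47.9 CPM in Col-0. Replicate 2 was the lower ask1 bud library in each case. The same held for MCM4, with 61 and 53.2 CPM in ask1 buds, against 54.9 and 59 CPM in ASK1 WT and 58.1 and 65.6 CPM in Col-0. It held for MCM5, with 63.1 and 54.3 CPM in ask1, against 52.9 and 58.6 CPM in ASK1 WT and 65.3 and 68.1 CPM in Col-0, and for MCM7, with 66.3 and 57.9 CPM in ask1, against 66.8 and 61.9 CPM in ASK1 WT and 66.9 and 70.2 CPM in Col-0. These are long genes, with 2649 to 3184 bases of exon, and the length trend of ask1 open flower replicate 1 moves with their fold changes. With that trend removed in every library they were -0.93 to -0.46 against ASK1 WT and -0.91 to -0.56 against Col-0, and all 6 stayed called. Without replicate 1 they were -1.1 to -0.68 and -1.02 to -0.71, and without replicate 2 -1.42 to -0.73 and -1.52 to -0.8. With only the libraries compared they were -1.16 to -0.69 and -1.16 to -0.74. In that fit MCM2, MCM4 and MCM7 lost their calls against both controls, and MCM5 lost its call against Col-0.

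**Figure D3:**
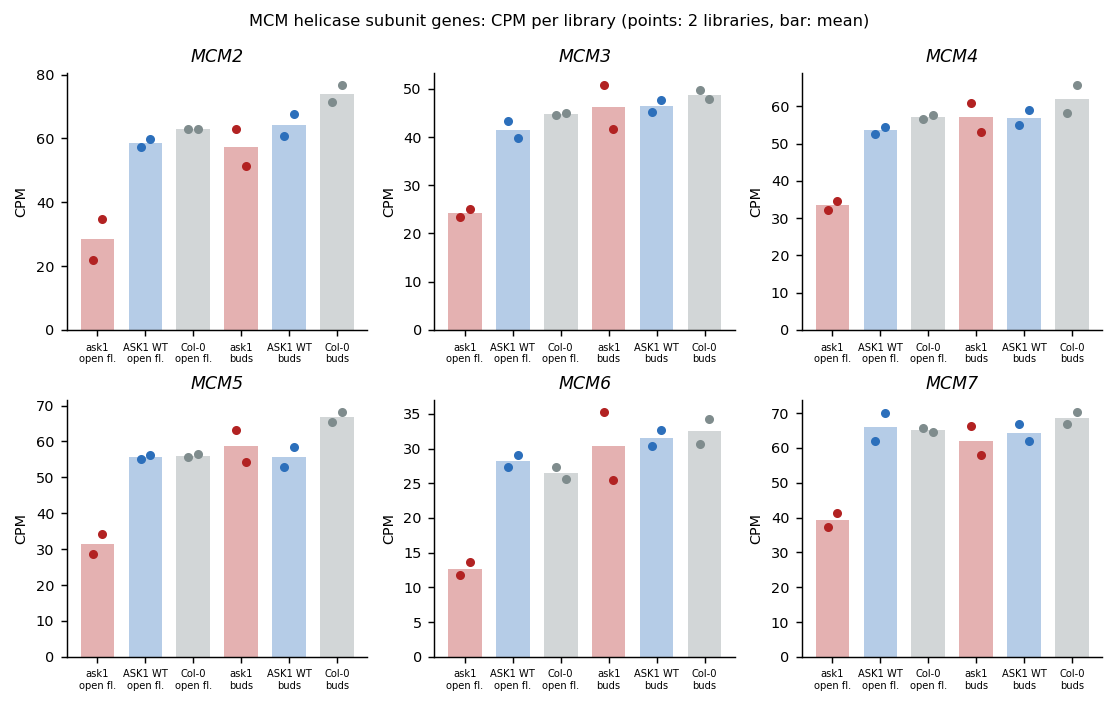
CPM of MCM2 to MCM7 in each of the 12 libraries (points) with group means (bars), by genotype in open flowers and buds. The ask1 open flower points lie below all other points of each panel, for MCM6 at 11.8 and 13.6 CPM against 25.6 to 29 CPM in the control open flowers.

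Of the genes that load the helicase, CDT1A (AT2G31270) had the lowest p of all 41 genes in open flowers against both controls. It had 15.5 and 16.4 CPM in ask1 open flowers, against 41.4 and 41.6 CPM in ASK1 WT and 35.7 and 37.8 CPM in Col-0. The replicates were tight, the groups far apart, and the log2 fold change was -1.38 ± 0.12 against ASK1 WT (SE, edgeR adjusted p = 2.5e-05) and -1.2 ± 0.12 against Col-0 (adjusted p = 6.7e-05). Buds had 28.3 and 23.3 CPM in ask1, against 27.6 and 27.7 CPM in ASK1 WT and 38.4 and 42.8 CPM in Col-0. There the ask1 libraries were below both Col-0 libraries but not both ASK1 WT ones. The bud fold change was -0.65 ± 0.12 against Col-0 (adjusted p = 0.00297) and -0.1 against ASK1 WT (adjusted p = 0.63). ASK1 WT and Col-0 buds themselves differed by -0.56 ± 0.12 for CDT1A (adjusted p = 0.107 in edgeR, 0.021 in DESeq2).

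CDC6 (AT2G29680), the partner of CDT1A in loading, was scarce and more variable. It had 2.18 and 3.53 CPM in ask1 open flowers, against 5.31 and 6.65 CPM in ASK1 WT and 5.08 and 5.51 CPM in Col-0, without overlap. Its fold change was -1.05 ± 0.24 against ASK1 WT (edgeR adjusted p = 0.0087) and -0.88 ± 0.25 against Col-0 (adjusted p = 0.0242). The call was lost against ASK1 WT without replicate 2 of ASK1 WT open flowers (-0.97, adjusted p = 0.0567). It was lost against Col-0 without replicate 1 of ask1 open flowers (-0.64, adjusted p = 0.0699) and without replicate 1 (-1.02, adjusted p = 0.0643) or 2 (-0.91, adjusted p = 0.0991) of Col-0 open flowers. The clamp genes did not pass the test in any comparison, and here the 2 ask1 open flower libraries went apart. PCNA1 (AT1G07370) had 27.6 and 15 CPM in them, against 27.3 and 27.9 CPM in ASK1 WT and 29.1 and 30.3 CPM in Col-0. PCNA2 (AT2G29570) had 45.4 and 23.3 CPM in them, against 37.4 and 37.8 CPM in ASK1 WT and 41.1 and 38.4 CPM in Col-0. PCNA1 and PCNA2 are short, with 1130 and 1183 bases of exon, and PCNA2 exons overlap those of ENOC on the opposite strand over 23.6% of their length. The ask1 fold change of PCNA2 in open flowers against Col-0 was -0.83 without replicate 1 and 0.19 without replicate 2.

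Among A-type cyclins, which act in S phase and G2, 2 of 6 fell in ask1 open flowers against ASK1 WT and 3 against Col-0. CYCA2;4 (AT1G80370) had 3.66 and 3.94 CPM in ask1, against 10.1 and 9.27 CPM in ASK1 WT and 10.3 and 8.54 CPM in Col-0. Both ask1 libraries were far below the controls, and the fold change was -1.35 ± 0.16 against ASK1 WT (SE, edgeR adjusted p = 0.000185) and -1.31 ± 0.17 against Col-0 (adjusted p = 0.000264). In buds the same gene had 14.6 and 12.9 CPM in ask1, against 12.5 and 13.5 CPM in ASK1 WT and 13.6 and 13.1 CPM in Col-0, with overlap throughout. CYCA2;3 (AT1G15570) had 13.4 and 16.3 CPM in ask1 open flowers, against 22.4 and 21.3 CPM in ASK1 WT and 26.4 and 22.7 CPM in Col-0. It changed by -0.55 ± 0.14 against ASK1 WT (adjusted p = 0.0117) and -0.72 ± 0.14 against Col-0 (adjusted p = 0.00348), though the first was lost without replicate 1 of ASK1 WT open flowers (-0.59, adjusted p = 0.0612). CYCA2;1 (AT5G25380), the least abundant, had 0.771 and 0.942 CPM in ask1 open flowers, against 1.39 and 0.991 CPM in ASK1 WT and 2.18 and 2.41 CPM in Col-0. It changed against Col-0 by -1.41 ± 0.34 (adjusted p = 0.0118), or -1.42 without replicate 2 of Col-0 open flowers (adjusted p = 0.0577). CYCA1;1, CYCA2;2 and CYCA3;1 (AT5G43080) had fold changes of -0.72 to -0.07 in open flowers and did not pass.

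Among B-type cyclins, the mitotic class, 3 of 8 fell in ask1 open flowers against ASK1 WT and 2 against Col-0. CYCB1;2 (AT5G06150), the most abundant, had 26.7 and 23.7 CPM in ask1, against 49.8 and 43.2 CPM in ASK1 WT and 42.5 and 39.2 CPM in Col-0. No ask1 library reached a control one, and the change was -0.89 ± 0.12 against ASK1 WT (SE, edgeR adjusted p = 0.000454) and -0.7 ± 0.12 against Col-0 (adjusted p = 0.00245). CYCB2;4 (AT1G76310) had 5.97 and 5.83 CPM in ask1, against 10.4 and 8.92 CPM in ASK1 WT and 10.3 and 7.86 CPM in Col-0. It changed by -0.72 ± 0.19 against ASK1 WT (adjusted p = 0.0166) and -0.62 ± 0.19 against Col-0 (adjusted p = 0.036). The calls were lost without replicate 1 of ASK1 WT (-0.67, adjusted p = 0.09) or replicate 1 of Col-0 open flowers (-0.5, adjusted p = 0.174), and the second also without either ASK1 WT bud library (-0.62, adjusted p = 0.0554 and 0.0555). CYCB1;3 (AT3G11520) had 9.25 and 7.06 CPM in ask1, against 14.4 and 11.9 CPM in ASK1 WT and 10.8 and 11.1 CPM in Col-0. It changed against ASK1 WT by -0.69 ± 0.17 (adjusted p = 0.0103), which was lost without replicate 1 of ASK1 WT open flowers (-0.63, adjusted p = 0.0615), and its value against Col-0 was -0.43 (adjusted p = 0.0811). The other 5 had fold changes of -0.5 to -0.07 against the 2 controls in open flowers and did not pass. CYCB2;1 (AT2G17620), whose window holds 3 cores, was among them, with 1.41 and 2.35 CPM in ask1, against 3.28 and 2.04 CPM in ASK1 WT and 2.42 and 2.04 CPM in Col-0, which overlap.

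The D-type cyclins, which couple growth signals to the cell cycle, gave 2 of the 4 genes called lower in ask1 buds. CYCD3;1 (AT4G34160), which keeps cells dividing in young organs, had 18.2 and 17.2 CPM in ask1 open flowers, against 25.2 and 25.9 CPM in ASK1 WT and 21.9 and 22.7 CPM in Col-0. In buds it had 29.7 and 26.4 CPM in ask1, against 42.4 and 45.9 CPM in ASK1 WT and 44.8 and 46 CPM in Col-0. Every ask1 library lay below every control of its tissue. The bud fold changes were -0.66 ± 0.11 against ASK1 WT (SE, edgeR adjusted p = 0.00111) and -0.69 ± 0.11 against Col-0 (adjusted p = 0.000955), and both held whichever library was left out. The open flower ones were -0.53 ± 0.11 (adjusted p = 0.00504) and -0.33 ± 0.11 (adjusted p = 0.048). The last was lost in 9 of the 12 fits without 1 library, with adjusted p up to 0.109 and values of -0.45 to -0.3.

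CYCD3;3 (AT3G50070), the D-type gene with an E2F spelling upstream, had 35.7 and 30.9 CPM in ask1 open flowers, against 46.7 and 50.8 CPM in ASK1 WT and 41 and 43.9 CPM in Col-0. Its bud levels were 39.4 and 34.3 CPM in ask1, against 56.8 and 54.2 CPM in ASK1 WT and 55.4 and 51.1 CPM in Col-0. As for its relative, no ask1 library reached a control. In buds it changed by -0.59 ± 0.12 against ASK1 WT (edgeR adjusted p = 0.00475) and -0.53 ± 0.12 against Col-0 (adjusted p = 0.0105), and in open flowers by -0.55 ± 0.12 against ASK1 WT (adjusted p = 0.0072), with -0.35 against Col-0 (adjusted p = 0.0567). The bud calls were lost without replicate 2 of ask1 buds (-0.49, adjusted p = 0.0525, and -0.43, adjusted p = 0.095) and, against Col-0, without replicate 1 of Col-0 buds (-0.47, adjusted p = 0.0819). CYCD1;1 (AT1G70210) had 38 and 49 CPM in ask1 open flowers, against 70.6 and 69.3 CPM in ASK1 WT and 59.7 and 56.8 CPM in Col-0. It changed against ASK1 WT by -0.68 ± 0.15 (adjusted p = 0.00566), and its value against Col-0 was -0.42 (adjusted p = 0.0554). CYCD3;2 (AT5G67260) had 53.3 and 47.9 CPM in ask1 open flowers, against 53.1 and 52 CPM in ASK1 WT and 50.8 and 52.1 CPM in Col-0, which overlapped. CYCD2;1 (AT2G22490) was the one gene of the 41 that rose. It had 22 and 17.5 CPM in ask1 open flowers, against 12.6 and 13.9 CPM in ASK1 WT and 13.3 and 13.6 CPM in Col-0. The change was 0.58 ± 0.15 against ASK1 WT (adjusted p = 0.0149) and 0.55 ± 0.15 against Col-0 (adjusted p = 0.0212). It was 0.35 (adjusted p = 0.079) and 0.32 (adjusted p = 0.119) without replicate 1 of ask1 open flowers, and no call held without replicate 1 (0.43 and 0.46, adjusted p = 0.167 and 0.0579) or 2 (0.56 and 0.46, adjusted p = 0.0723 and 0.058) of ASK1 WT open flowers. Against Col-0 it was also lost without either Col-0 open flower library (0.45 and 0.48, adjusted p = 0.158 and 0.142).

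Of the 5 CDKs, 3 fell in ask1 open flowers against ASK1 WT and 2 of these also against Col-0. CDKA;1 (AT3G48750), the kinase used throughout the cycle, had 59 and 58.9 CPM in ask1 open flowers, against 53 and 52.9 CPM in ASK1 WT and 52.2 and 50.7 CPM in Col-0. Both ask1 libraries lay above the controls, but the fold change of 0.16 ± 0.11 against ASK1 WT did not pass (edgeR adjusted p = 0.32). Both CDKB2 kinases of G2 and mitosis fell against both controls. CDKB2;1 (AT1G76540) had 27.4 and 23.8 CPM in ask1, against 40.3 and 42.4 CPM in ASK1 WT and 36.4 and 30.8 CPM in Col-0, and CDKB2;2 (AT1G20930) had 15.4 and 12.3 CPM in ask1, against 22.6 and 19.5 CPM in ASK1 WT and 19.6 and 18.1 CPM in Col-0. Both changed without overlap, by -0.69 ± 0.13 and -0.61 ± 0.14 against ASK1 WT (adjusted p = 0.00237 and 0.00854) and by -0.39 ± 0.13 and -0.44 ± 0.14 against Col-0 (adjusted p = 0.0424 and 0.0402). Against Col-0 the calls were lost in 8 and 9 of the 12 fits without 1 library, with adjusted p up to 0.152 and 0.107. CDKB1;2 (AT2G38620) had 7.39 and 4.65 CPM in ask1, against 11.2 and 10.9 CPM in ASK1 WT and 9.93 and 9.28 CPM in Col-0. It changed against ASK1 WT by -0.88 ± 0.25 (adjusted p = 0.022) and not against Col-0 (-0.68, adjusted p = 0.0682). The ASK1 WT call was lost without replicate 2 of ask1 (-0.58, adjusted p = 0.0545) and without either ASK1 WT open flower library (-0.94 and -0.98, adjusted p = 0.0724 and 0.0549). CDKB1;1 (AT3G54180) had 14.8 and 10.6 CPM in ask1, against 16.1 and 14.1 CPM in ASK1 WT and 12.8 and 12.7 CPM in Col-0, and did not pass against either control (-0.25 and -0.01). CDKB1;2 exons overlap those of AT2G38630 on the opposite strand over 18.3% of their length, and AT2G38630 averaged 20.9 CPM in ask1 open flowers, against 11.5 CPM in ASK1 WT and 12.7 CPM in Col-0.

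AUR1 and AUR2 (AT2G25880), the pair of closely related Aurora kinases that act on the spindle and the division plane, were among the genes that fell most. AUR1 (AT4G32830) had 20.4 and 10.9 CPM in ask1 open flowers, against 42 and 40.9 CPM in ASK1 WT and 40.3 and 41.5 CPM in Col-0. AUR2 had 13.1 and 7.48 CPM in ask1, against 28.3 and 24.3 CPM in ASK1 WT and 30.3 and 25.1 CPM in Col-0. The ask1 libraries of both genes differed from each other but stayed below every control. AUR1 changed by -1.41 ± 0.22 against ASK1 WT (SE, edgeR adjusted p = 0.000925) and -1.39 ± 0.22 against Col-0 (adjusted p = 0.00119), and its value was -1.03 and -1.01 without ask1 replicate 2. AUR2 changed by -1.36 ± 0.22 (adjusted p = 0.00117) and -1.43 ± 0.22 (adjusted p = 0.00101), with -1.01 and -1.08 without that library. Both held with any single library left out. AUR3 (AT2G45490), which acts on chromosomes and centromeres, had 3.08 and 2.88 CPM in ask1, against 4.32 and 4.02 CPM in ASK1 WT and 3.81 and 4.39 CPM in Col-0, and did not pass (-0.48, adjusted p = 0.102 against ASK1 WT). AUR2 exons overlap those of an opposite-strand gene, AT2G25890, over 36.9% of their length, and AUR1 exons those of PFK6 over 19.2%. AT2G25890 averaged 0.749 CPM in ask1 open flowers, against 0.281 CPM in ASK1 WT and 0.153 CPM in Col-0. In buds it averaged 2.02 CPM in ask1, against 24.1 CPM in ASK1 WT and 26.9 CPM in Col-0. The counting strand is not given in the sources used here, so reads of such pairs cannot be told apart. Exons of 14 of the 41 genes overlap an opposite-strand gene, among them PCNA2 and CDKB1;2.

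HIK (AT1G18370), the kinesin that activates the kinase cascade of phragmoplast expansion, had 18.4 and 18.5 CPM in ask1 open flowers, against 42.8 and 35.4 CPM in ASK1 WT and 40.6 and 33.5 CPM in Col-0. Both ask1 libraries were far below the lowest control, and the fold change was -1.09 ± 0.13 against ASK1 WT (SE, edgeR adjusted p = 0.000204) and -1.01 ± 0.13 against Col-0 (adjusted p = 0.000387). In buds it had 48.1 and 45.8 CPM in ask1, against 46.2 and 49.7 CPM in ASK1 WT and 44.3 and 46.2 CPM in Col-0, and the groups overlapped. KNOLLE (AT1G08560), the cytokinesis syntaxin that acts at the cell plate, had 49.9 and 25.5 CPM in ask1 open flowers, against 48.1 and 42.3 CPM in ASK1 WT and 47.3 and 40.2 CPM in Col-0. One ask1 library was above all controls and the other below, and the fold change of -0.26 ± 0.24 did not pass (adjusted p = 0.439 against ASK1 WT). Exons of NPQ1 overlap 33.5% of KNOLLE on the opposite strand, and NPQ1 averaged 51.2 CPM in ask1, against 21.3 CPM in ASK1 WT and 25.8 CPM in Col-0 open flowers. CDC20.1 (AT4G33270) had 43.4 and 32.3 CPM in ask1 open flowers, against 57.7 and 52.1 CPM in ASK1 WT and 52.4 and 47.2 CPM in Col-0, without overlap. CDC20.2 (AT4G33260) had 22.1 and 27 CPM in ask1, against 39.8 and 30.8 CPM in ASK1 WT and 33 and 26.2 CPM in Col-0, and here one Col-0 library lay between the ask1 ones. They changed against ASK1 WT, by -0.54 ± 0.14 (adjusted p = 0.0169) and -0.52 ± 0.17 (adjusted p = 0.0351), but neither passed against Col-0 (adjusted p = 0.0635 and 0.249). Without replicate 1 of ASK1 WT open flowers both calls ended (-0.54 and -0.4, adjusted p = 0.0679 and 0.214). CDC20.2 also lost it without replicate 1 of ask1 open flowers (-0.44, adjusted p = 0.0678) and without each ASK1 WT or Col-0 bud library (adjusted p up to 0.0524). The 2 genes are close copies, with 25.0% and 27.8% of their 100-base exon windows in common. Reads that align to both may be missing from both counts, as reads without a unique place were counted apart.

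**Figure D4:**
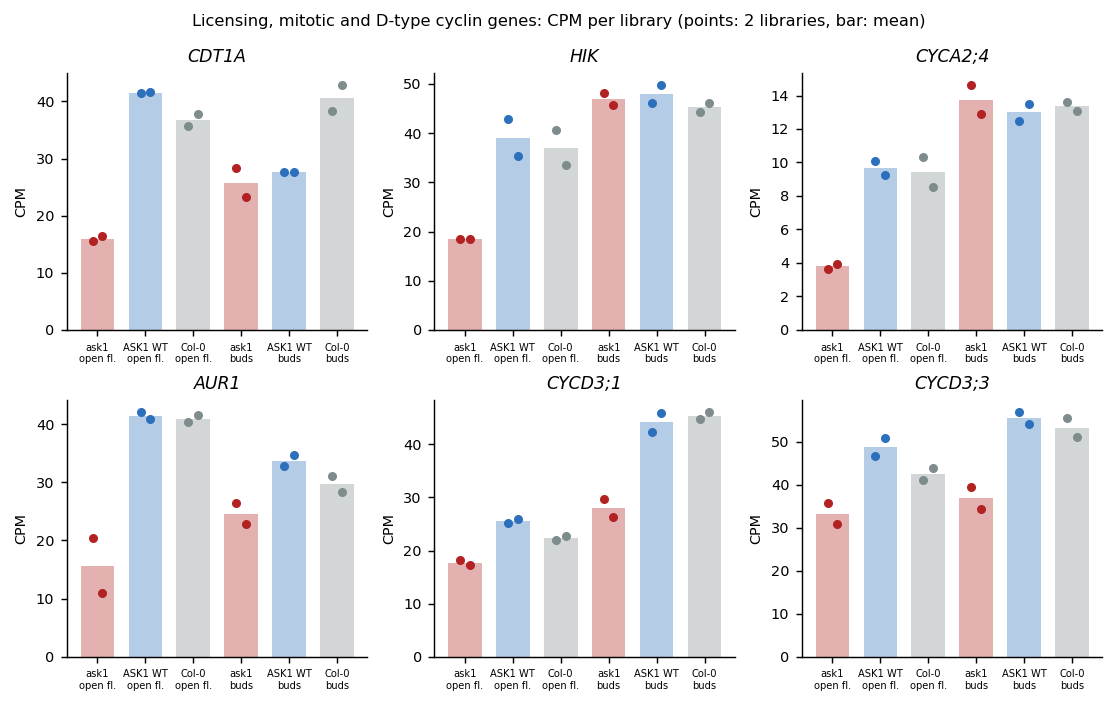
CPM of CDT1A, HIK, CYCA2;4, AUR1, CYCD3;1 and CYCD3;3 in each library (points) with group means (bars), by genotype in open flowers and buds. For the first 4 the low points are ask1 open flowers, and for both CYCD3 genes the ask1 points are below the controls in each tissue, as in buds at 29.7 and 26.4 CPM for CYCD3;1 against 42.4 to 46 CPM.

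In buds few genes of the set differed by genotype. Against ASK1 WT, 3 of 41 fell (17% of all genes fell), namely CYCD3;1, CYCD3;3 and CYCB1;2, and no other gene was called (25.9% of all genes were). Against Col-0, 3 fell (14.1% of all genes, with 21.1% called either way), namely the same D-type pair and CDT1A, so that 2 fell against both (12.6% of all genes). By edgeR 0 of 41 rose against either control (8.84% and 7.04% of all genes) or against both (5.62%), with 2 at an unadjusted p under 0.05 in each and 0 by DESeq2. The shares that fell were below those of all genes, and the medians were -0.08 and -0.09, beside -0.05 for all genes. Both ask1 bud libraries lay below all 4 controls for 11 genes (32.1% of all genes) and above them for 5 (22.5% of all genes). CYCB1;2 had 50 and 49.2 CPM in ask1 buds, against 61.7 and 70.2 CPM in ASK1 WT and 56.1 and 54.1 CPM in Col-0. It changed by -0.41 ± 0.12 against ASK1 WT (edgeR adjusted p = 0.0291) but was lost in 8 of the 12 fits without 1 library (adjusted p up to 0.209). Without ask1 bud replicate 2 the count against ASK1 WT was 1. Without ask1 open flower replicate 1 the counts were 9 against ASK1 WT and 8 against Col-0, and without replicate 2 they were 9 and 11. All genes moved too, as the spread is estimated over all groups, with 40.7% and 37.3% called without replicate 1 and 40.4% and 36.6% without replicate 2, so the shares of the 41 (22% and 19.5%, and 22% and 26.8%) were still the lower ones.

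The other genes described here were not called in buds, whether or not their libraries overlapped the controls. CDC6 had 4.42 and 4.33 CPM in ask1 buds, against 6.03 and 4.96 CPM in ASK1 WT and 7.12 and 6.77 CPM in Col-0, below every control but not called (-0.32 and -0.67). PCNA1 had 34.5 and 26 CPM in ask1, against 25.5 and 29.2 CPM in ASK1 WT and 29.4 and 29 CPM in Col-0, and PCNA2 had 35.5 and 31.3 CPM in ask1, against 35 and 37.2 CPM in ASK1 WT and 44.4 and 40.8 CPM in Col-0. Among the kinases, CDKB2;1 had 54.4 and 56.5 CPM in ask1 buds, against 49.8 and 56.5 CPM in ASK1 WT and 54.2 and 53.8 CPM in Col-0. Those values overlapped, as did the next pair. CDKB1;2 had 10.5 and 6.5 CPM in ask1, against 8.63 and 9.41 CPM in ASK1 WT and 9.81 and 8.9 CPM in Col-0, and CDKA;1 had 52.3 and 58.9 CPM in ask1, against 51.2 and 56.6 CPM in ASK1 WT and 55.4 and 50.1 CPM in Col-0. CDKB1;1 had 17.5 and 19 CPM in ask1 buds, against 14.5 and 15.5 CPM in ASK1 WT and 17.3 and 15.2 CPM in Col-0, above every control but not called (0.28 and 0.16). AUR1 had 26.4 and 22.8 CPM in ask1 buds, against 32.8 and 34.6 CPM in ASK1 WT and 31.1 and 28.4 CPM in Col-0, and AUR2 had 16.6 and 15.2 CPM in ask1, against 20.8 and 19.6 CPM in ASK1 WT and 19.2 and 16.5 CPM in Col-0. AUR1 was below every control there but not called (-0.45 and -0.27), and AUR2 overlapped Col-0.

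Of the cyclins in buds, CYCA2;2 (AT5G11300) had 4.74 and 4.81 CPM in ask1, against 5.06 and 5.38 CPM in ASK1 WT and 5.38 and 3.97 CPM in Col-0. CYCA1;1 (AT1G44110) had 26.9 and 26.2 CPM in ask1, against 18.6 and 20.9 CPM in ASK1 WT and 25.3 and 21.2 CPM in Col-0, above every control but not called (0.43 and 0.19). CYCB1;3 had 9.54 and 8.73 CPM in ask1, against 9.21 and 9.51 CPM in ASK1 WT and 8.97 and 8.96 CPM in Col-0. CYCA2;2 and CYCB1;3 overlapped their controls. So did CYCB2;1, with 4.69 and 4.13 CPM in ask1, against 4.15 and 5.17 CPM in ASK1 WT and 3.37 and 4.2 CPM in Col-0. CYCD2;1 had 15.9 and 15.9 CPM in ask1 buds, against 15.4 and 15 CPM in ASK1 WT and 12.1 and 14.9 CPM in Col-0, above every control but not called (0.06 and 0.24). CYCD3;2 had 55.4 and 55.9 CPM in ask1, against 62.4 and 77.6 CPM in ASK1 WT and 72.5 and 60.1 CPM in Col-0, and CYCD1;1 had 55.2 and 58.5 CPM in ask1, against 76.6 and 71.3 CPM in ASK1 WT and 77.2 and 63 CPM in Col-0. Both lay below every control without a call. KNOLLE had 55.3 and 62 CPM in ask1 buds, against 62.9 and 61.1 CPM in ASK1 WT and 61.4 and 53.7 CPM in Col-0, which overlapped. CDC20.1 had 61 and 58.3 CPM in ask1, against 70.5 and 74.3 CPM in ASK1 WT and 65.7 and 64.1 CPM in Col-0, below every control but not called (-0.28 and -0.12). CDC20.2 overlapped, with 40.7 and 38.7 CPM in ask1, against 37.6 and 42.2 CPM in ASK1 WT and 38.4 and 35 CPM in Col-0. AUR3 had 3.33 and 3.93 CPM in ask1 buds, against 4.8 and 4.03 CPM in ASK1 WT and 4.32 and 3.97 CPM in Col-0, just below every control and not called (-0.28 and -0.2).

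Between tissues, in the fit to all 12 libraries, most of these genes were called lower in ask1 open flowers than in ask1 buds. In the controls the share called lower in that fit was near that of all genes. In ask1, 27 of 41 were lower in open flowers (15.5% of all genes, with 37.7% called either way) and by edgeR 0 were higher (22.2% of all genes), with 0 higher also at an unadjusted p under 0.05 and by DESeq2. In ASK1 WT 11 were called (35.3% of all genes), 9 lower (22% of the 41, against 16.9% of all genes) and 2 higher (18.4% of all genes), and in Col-0 9 were called (35.8% of all genes), 7 lower (17.1% of the 41, against 17.1% of all genes) and 2 higher (18.8% of all genes). The medians were -0.66, -0.16 and -0.29 in ask1, ASK1 WT and Col-0, beside 0.05, -0.02 and -0.03 over all genes. The order of the counts depended on the fit. With only the libraries compared, more of the 41 were called in each control than in ask1. The 5 genes lower in all 3 genotypes (8.75% of all genes) were CYCD3;1, CDKB2;1, CYCA2;4, CYCB1;1 and CYCB1;2. CYCD3;1 had tissue fold changes (log2) of -0.67, -0.79 and -1.03 in ask1, ASK1 WT and Col-0. CDKB2;1 had -1.11, -0.36 and -0.68, and its Col-0 libraries had 36.4 and 30.8 CPM in open flowers, against 54.2 and 53.8 CPM in buds. The 6 MCM genes had -1.26 to -0.65 in ask1, all called, while their values were -0.16 to 0.04 in ASK1 WT and -0.29 to -0.07 in Col-0, with no call.

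In the 2 controls a few genes were higher in open flowers. In Col-0, CYCA2;1 was higher by 1.35 ± 0.33 (edgeR adjusted p = 0.00806), with 2.18 and 2.41 CPM in open flowers, against 1.01 and 0.784 CPM in buds, but without replicate 2 of Col-0 buds it did not pass (1.18, adjusted p = 0.0711). AUR2 was higher in Col-0 by 0.64 ± 0.21 (adjusted p = 0.0375), and without replicate 1 of the Col-0 open flowers or replicate 2 of the buds this was lost (0.57 and 0.53, adjusted p = 0.141 and 0.211). In ASK1 WT, CDT1A was higher by 0.59 ± 0.12 (adjusted p = 0.00283), with 41.4 and 41.6 CPM in open flowers, against 27.6 and 27.7 CPM in buds. In Col-0 the same gene had 35.7 and 37.8 CPM in open flowers, against 38.4 and 42.8 CPM in buds, and was not called (-0.14, adjusted p = 0.406). CYCB1;3 was higher in ASK1 WT open flowers by 0.49 ± 0.16 (adjusted p = 0.0377), and this was lost without either ASK1 WT bud library (0.47 and 0.51). Of the calls, 22 of 27 in ask1, 3 of 11 in ASK1 WT and 2 of 9 in Col-0 held with any single library left out. The counts ranged from 22 to 32 in ask1, from 3 to 18 in ASK1 WT and from 3 to 22 in Col-0. The lowest in ASK1 WT came without replicate 2 of its buds and the lowest in Col-0 without replicate 1 of its buds, while the highest in both came without ask1 open flower replicate 2. The share of all genes called moved as well, so these ranges alone are not a result about the 41. For the ask1 tissues the share of the 41 was above that of all genes in each of the 12 fits. For the ASK1 WT tissues it was above in 0 fits, and for the Col-0 ones in 1. On the scale of mean CPM per kilobase of exon, CDKA;1 led the 41 genes in Col-0 open flowers at 34.3, followed by PCNA2 at 33.6 and KNOLLE at 31.6. In Col-0 buds KNOLLE led at 41.5, and CDKB2;1 and CYCD3;2 followed at 39.5 and 39.4.

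**Figure D5:**
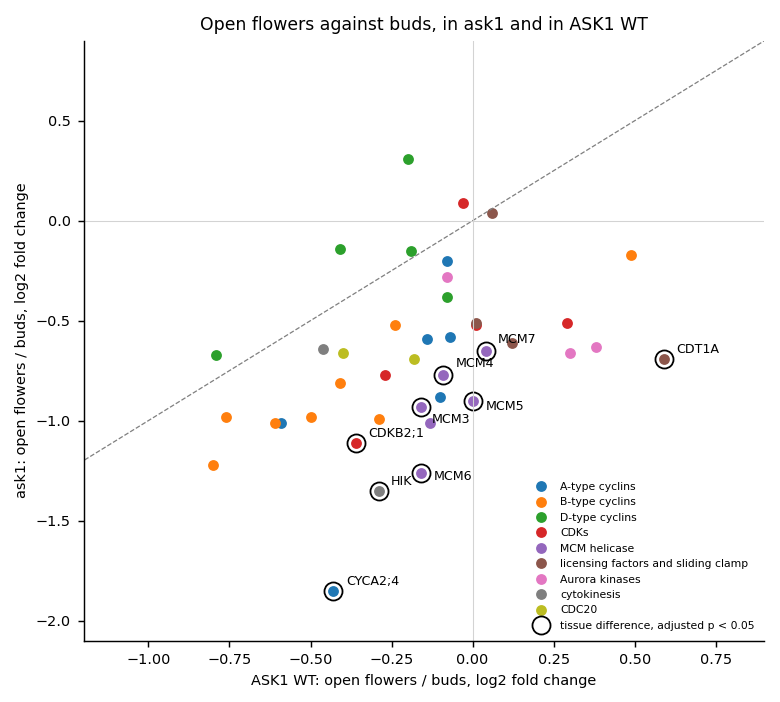
Log2 fold change of open flowers over buds for the 41 genes, in ask1 (vertical) against ASK1 WT (horizontal), where circled points passed the test of the difference between the 2 tissues in the ask1 effect. Most points lie below the diagonal, and the MCM points are at -1.26 to -0.65 in ask1 and -0.16 to 0.04 in ASK1 WT.

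The difference between the tissues was tested as an interaction, the ask1 effect in open flowers minus that in buds. Against ASK1 WT it was called for 9 of 41 (6.82% of all genes) and against Col-0 for 6 (4.96% of all genes), all negative (2.36% and 2.16% of all genes). By edgeR 0 were positive in either (4.45% and 2.8% of all genes), with 1 at an unadjusted p under 0.05 in each and 0 by DESeq2. CDT1A differed by -1.28 ± 0.17 against ASK1 WT (SE, edgeR adjusted p = 0.00295), and its value against Col-0 was -0.55 (adjusted p = 0.0943). CYCA2;4 differed by -1.43 ± 0.22 (adjusted p = 0.00563) and -1.35 ± 0.22 (adjusted p = 0.00903), HIK by -1.05 ± 0.19 (adjusted p = 0.0102) and -1.06 ± 0.19 (adjusted p = 0.0129), and MCM6 by -1.1 ± 0.22 (adjusted p = 0.0171) and -0.96 ± 0.22 (adjusted p = 0.0352). CYCD3;1 and CYCD3;3, which were lower in both tissues, had differences of 0.13 and 0.04 against ASK1 WT, neither called. With each library left out in turn, 2 of the 9 (CDT1A and CYCA2;4) and 0 of the 6 held every time. The number called moved widely among these fits, for all genes as for the 41. It was lowest for the 41 without replicate 1 of ASK1 WT buds and without replicate 2 of Col-0 buds. Both were highest without replicate 1 of ask1 open flowers. The share of the 41 was above that of all genes in 12 of the 12 fits against ASK1 WT and in 11 against Col-0. With the exon-length trend removed, HIK lost both calls (-0.74 and -0.73, adjusted p = 0.0816 and 0.101), as did MCM3 (-0.55 and -0.57, adjusted p = 0.0735 and 0.0749) and MCM4 (-0.49 and -0.46, adjusted p = 0.0751 and 0.108).

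Few genes of any kind were called between ASK1 WT and Col-0, so a lack of calls among the 41 does not set them apart. The number over all genes also depended on the fit. In buds it was 70, or 748 with only the libraries compared, and in open flowers 9, or 397. By edgeR 0 of 41 were called in buds (0.32% of all genes, 0.174% higher and 0.146% lower) and 0 in open flowers (0.0411% of all genes, 0.032% higher and 0.00914% lower). At an unadjusted p under 0.05 there was 1 in buds, CDT1A (-0.56), and 2 in open flowers, CDKB2;1 (0.3) and CYCA2;1 (-0.93). DESeq2 called 1 in buds and 0 in open flowers. Markers of other floral cells moved as follows. The 4 tapetum markers summed to 202 to 232 CPM in ask1 buds, against 204 to 205 CPM in ASK1 WT and 173 to 225 CPM in Col-0 buds, none was called, and in open flowers their sum was at most 0.433 CPM in every library. The 4 meristem markers summed to 41.3 to 58.7 CPM in ask1 open flowers, against 54 to 55.6 CPM in ASK1 WT and 58 to 64 CPM in Col-0, with LFY called lower in 3 of the 4 ask1 comparisons and CLV3 at 0 in every library. In open flowers that sum was nearly all STM. WUS had at most 0.0899 CPM in any open flower library, against 15.9 to 26.4 CPM in buds. LFY had 0 reads in both ask1 open flower libraries, against only 7 and 6 in ASK1 WT and 3 and 3 in Col-0. The 4 ovule and seed markers summed to 75.4 to 108 CPM in ask1 open flowers, against 119 to 122 CPM in ASK1 WT and 97.5 to 111 CPM in Col-0, and MEA was lower against both. That sum was nearly all STK, which averaged 88.9 CPM in ask1, 113 CPM in ASK1 WT and 99.6 CPM in Col-0 open flowers. The 4 meiocyte markers summed to 9.89 to 15.2 CPM in ask1 open flowers, against 15 to 17.6 CPM in ASK1 WT and 13.4 to 13.8 CPM in Col-0. In buds the meiocyte markers summed to 22.6 to 22.8 CPM in ask1, against 30.1 CPM in both ASK1 WT libraries and 26.8 to 28.2 CPM in Col-0. DMC1 made up most of these sums, and in buds it had 17.3 and 17.5 CPM in ask1, against 18.3 and 18 CPM in ASK1 WT and 16.2 and 14.4 CPM in Col-0. SYN1 was called lower against both controls there, and SDS against both in open flowers. The 4 male germline markers summed to 0.648 to 2.12 CPM in ask1 open flowers, against 4.66 to 7.33 CPM in ASK1 WT and 4.9 to 6.5 CPM in Col-0, and to 1.25 to 1.56 CPM in ask1 buds, against 9.92 to 11.4 CPM in ASK1 WT and 9.93 to 13.3 CPM in Col-0 buds. MGH3 and HAP2 were lower in all 4 comparisons, DUO1 in none, and GEX2 was at 0 in every library. The part of these cell types in the lower levels of the 41 genes was not tested.

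A wider list of 86 other cell cycle and replication genes, 83 of them tested, had more falls than rises in open flowers. Against ASK1 WT 27 fell (32.5% of the 83, against 15.9% of all genes) and 9 rose (10.8%, against 14.1%), with a median of -0.3. Against Col-0 25 fell (30.1%, against 14.3% of all genes) and 8 rose (9.64%, against 12.9%), with a median of -0.25. In buds the shares were below those of all genes. There 5 fell (6.02%, against 17% of all genes) and 4 rose (4.82%, against 8.84%) against ASK1 WT, and 7 fell (8.43%, against 14.1%) and 3 rose (3.61%, against 7.04%) against Col-0. Of the 21 genes of origin recognition and the fork, 10 fell against each control in open flowers (47.6%, against 15.9% and 14.3% of all genes). ORC6, a subunit of the origin recognition complex, had 7.45 and 4.83 CPM in ask1 open flowers, against 27.8 and 26.9 CPM in ASK1 WT and 27.4 and 28.9 CPM in Col-0. The groups were far apart, and it changed by -2.16 ± 0.19 (SE, edgeR adjusted p = 1.86e-05) and -2.2 ± 0.19 (adjusted p = 1.71e-05). In buds, at 4.91 and 4.6 CPM in ask1, against 8.05 and 8.58 CPM in ASK1 WT and 9.93 and 8.23 CPM in Col-0, it changed by -0.8 (adjusted p = 0.0121) and -0.93 (adjusted p = 0.00639). The bud call of ORC6 against ASK1 WT was lost without either ask1 bud library (-0.85 and -0.76, adjusted p = 0.0539 and 0.0697) or replicate 2 of ASK1 WT buds (-0.75, adjusted p = 0.0748), and that against Col-0 without replicate 1 of Col-0 buds (-0.79, adjusted p = 0.058). ORC1A changed in open flowers by -0.96 and -1.03 (adjusted p = 0.0228 and 0.0204), and this was lost without replicate 2 of ask1 (-0.66 and -0.72, adjusted p = 0.0885 and 0.067) or replicate 1 of either control (-0.97 and -0.94, adjusted p = 0.0917 and 0.0953). AT1G07270, listed with the origin genes, had 0.835 and 0.589 CPM in ask1 open flowers, against 1.98 and 2.1 CPM in ASK1 WT and 2.72 and 2.04 CPM in Col-0, and changed by -1.51 and -1.74 (adjusted p = 0.00812 and 0.0045).

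Of 16 other cyclins and associated genes tested, 4 fell in open flowers against ASK1 WT (25%, against 15.9% of all genes) and 3 against Col-0 (18.8%, near the 14.3% of all genes). CYCD7;1, a cyclin of the guard cell and pollen lineages, had 16.3 and 9.42 CPM in ask1 open flowers, against 130 and 111 CPM in ASK1 WT and 133 and 133 CPM in Col-0, a log2 change of -3.23 and -3.37 (edgeR adjusted p = 0.000335 and 0.000298). Bud levels were 0.0545 and 1.83 CPM in ask1, against 25.2 and 22.4 CPM in ASK1 WT and 22 and 16.3 CPM in Col-0. The first of these lies under the limit of 3 reads, and the summed pollen markers were low in the same libraries, at 53 to 141 CPM in ask1 buds, against 1550 to 1690 CPM in ASK1 WT and 1440 to 1490 CPM in Col-0 buds. The part of pollen RNA in these values was not tested. CYCB3;1, a further B-type cyclin with roles in meiosis, had 3.15 and 2.59 CPM in ask1 open flowers, against 8.86 and 9.45 CPM in ASK1 WT and 7.57 and 9.41 CPM in Col-0, a log2 change of -1.67 and -1.56 (adjusted p = 0.000102 and 0.000188). All 10 mitotic, spindle and phragmoplast genes had fold changes below 0 in open flowers against both controls, and 6 fell in each (60%, against 15.9% and 14.3% of all genes).

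Regulators that act on the 41 genes went both ways. RBR1, the retinoblastoma gene, did not pass in open flowers (-0.59 and -0.61, edgeR adjusted p = 0.112 and 0.109), and its 2 ask1 libraries stood far apart at 44.6 and 94.7 CPM. E2FA, an activating E2F, had -0.36 and -0.48 (adjusted p = 0.107 and 0.0456), and the second was lost in 9 of the 12 fits without 1 library (adjusted p up to 0.166). DEL1, an atypical E2F that holds back endoreduplication, changed by -1.05 and -1.17 in open flowers (adjusted p = 0.00937 and 0.00653), which was lost without replicate 1 of ASK1 WT (-0.92, adjusted p = 0.0736) or replicate 2 of Col-0 open flowers (-0.94, adjusted p = 0.0538). DEL2, another atypical E2F, rose in buds by 1.63 and 0.92 (adjusted p = 0.00144 and 0.029), the second being lost without replicate 2 of ask1 (0.73, adjusted p = 0.172) or either library of Col-0 buds (0.96 and 0.89, adjusted p = 0.109 and 0.149). E2FC, a repressive E2F and an SCF substrate, changed in buds by -0.6 and -0.47 (adjusted p = 0.00464 and 0.0204), the second lost in 8 of the 12 fits without 1 library (adjusted p up to 0.148). Of the CDK inhibitors and WEE1, 4 rose (14.1% of all genes) and 3 fell (15.9% of all genes) of 13 tested against ASK1 WT in open flowers, and 3 rose (12.9%) and 3 fell (14.3%) against Col-0. The inhibitor gene KRP3 had 1.22 and 0.471 CPM in ask1, against 2.56 and 2.33 CPM in ASK1 WT and 2.3 and 3.78 CPM in Col-0 open flowers. It changed by -1.55 and -1.85 (adjusted p = 0.0159 and 0.00746), which was lost without replicate 2 of ask1 (-1.01, adjusted p = 0.0516) or replicate 1 of ASK1 WT (-1.56, adjusted p = 0.0688) for the first and without replicate 2 of Col-0 (-1.55, adjusted p = 0.053) for the second. CCS52A1, an activator of the anaphase-promoting complex that promotes endoreduplication, had 9.6 and 9.28 CPM in ask1 buds, against 17.5 and 16.3 CPM in ASK1 WT and 14.2 and 18 CPM in Col-0. It changed without overlap, by -0.84 and -0.77 (adjusted p = 0.00246 and 0.0051), and the second was lost without replicate 2 of Col-0 buds (-0.59, adjusted p = 0.0648). SMR4, an inhibitor of the SIAMESE-related family, changed in open flowers by -1.67 and -1.55 (adjusted p = 0.0253 and 0.0437) but stood at 0.177 to 0.321 CPM in ask1, against 0.583 to 0.989 CPM in ASK1 WT and 0.726 to 0.743 CPM in Col-0. The ASK1 WT call was lost without ask1 open flower replicate 2 (-1.31, adjusted p = 0.105) or replicate 1 of ASK1 WT (-1.3, adjusted p = 0.179), and the Col-0 one in 9 of the 12 fits without 1 library (adjusted p up to 0.156). The others called were named after their values were seen. WEE1, a kinase that holds back CDK activity, had log2 changes of -0.91 and -0.77 (adjusted p = 0.00618 and 0.018), the second lost without replicate 1 of Col-0 open flowers (-0.75, adjusted p = 0.0812).

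The 4 inhibitor genes that rose in open flowers were KRP2, KRP4, KRP6 and KRP7. KRP2 had 77.4 and 49.8 CPM in ask1, against 34.2 and 38.2 CPM in ASK1 WT and 35.8 and 41.4 CPM in Col-0, and KRP6 had 44.6 and 26.3 CPM in ask1, against 20.5 and 20.9 CPM in ASK1 WT and 20.6 and 16.2 CPM in Col-0. Their ask1 libraries lay above every control but far from each other. KRP2 rose by 0.81 and 0.72 (edgeR adjusted p = 0.00693 and 0.0148), the first lost without replicate 1 of ASK1 WT (0.65, adjusted p = 0.0887) and the second without either Col-0 open flower library (0.52 and 0.74, adjusted p = 0.157 and 0.0613). KRP6 rose by 0.77 and 0.95 (adjusted p = 0.0309 and 0.0156), or 0.29 and 0.46 without replicate 1 of ask1 (adjusted p = 0.239 and 0.0795). It was also lost against ASK1 WT without any 1 of the 4 control open flower libraries (adjusted p up to 0.175) and against Col-0 without replicate 2 of Col-0 (0.69, adjusted p = 0.158). KRP4 had 26.5 and 32 CPM in ask1, against 20.3 CPM or less in ASK1 WT and 21.8 and 22.5 CPM in Col-0. It rose by 0.54 and 0.4 (adjusted p = 0.0112 and 0.0431), the first lost without either ASK1 WT open flower library (0.45 and 0.46, adjusted p = 0.137 and 0.119) and the second in 9 of the 12 fits without 1 library (adjusted p up to 0.317). KRP7 had 5.27 and 3.65 CPM in ask1, against 2.61 and 2.62 CPM in ASK1 WT and 3.09 and 3.47 CPM in Col-0. It rose against ASK1 WT by 0.76 (adjusted p = 0.0443), lost in 9 of the 12 fits (adjusted p up to 0.282), and its value against Col-0 was 0.44 (adjusted p = 0.219).

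The 3 F-box genes that serve the cell cycle, whose proteins would need an SKP1 partner, did not move as one. SKP2B, which targets CDK inhibitors, had 38.1 and 41.4 CPM in ask1 open flowers, against 23.1 and 25.7 CPM in ASK1 WT and 24.3 and 24.3 CPM in Col-0. In buds it had 20.4 and 23.8 CPM in ask1, against 9.99 and 11.4 CPM in ASK1 WT and 14.9 and 12.6 CPM in Col-0. Every ask1 library was above every control of its tissue, and it rose by 0.71 against both controls in open flowers (edgeR adjusted p = 0.00261 and 0.0031) and by 1.04 and 0.68 in buds (adjusted p = 0.000279 and 0.00509). The calls were lost without replicate 1 of ASK1 WT open flowers (0.56, adjusted p = 0.0654), without either Col-0 open flower library (0.62 and 0.63, adjusted p = 0.0519 and 0.0514) and, in buds, without replicate 2 of Col-0 (0.57, adjusted p = 0.0634). SKP2A, its close relative, fell in open flowers against ASK1 WT (-0.43, adjusted p = 0.0251), lost without replicate 2 of ASK1 WT (-0.44, adjusted p = 0.0996), with -0.32 against Col-0 (adjusted p = 0.087). FBL17, the F-box protein that removes CDK inhibitors in the male germline and other tissues, did not pass (-0.34 and -0.38, adjusted p = 0.165 and 0.127).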

How the data were processed

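RNA-seq read counts of 12 libraries were analysed, 1 deposited file a library, each with 33602 genes and 5 summary lines. The authors' values were whole, unequal in total and treated as raw counts per gene. Trimmomatic, TopHat2, HTSeq and the TAIR10 build are named in the submitters' processing notes, and versions, settings and counting strand are not given in the sources used here. Those summary lines, 7.6% to 9.7% of each library, stayed out of library sizes and tests.

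Genes were filtered with edgeR's filterByExpr (minimum count 10, minimum total 15) to 21890. After TMM scaling, edgeR fitted 1 mean for each of 6 groups over all 12 libraries, with robust estimates and 6 residual degrees of freedom (edgeR 4.0.16, limma 3.58.1, R 4.3.3). Each of 11 comparisons used the quasi-likelihood test, Benjamini-Hochberg adjusted over all tested genes at 0.05. SEs are the absolute log2 fold change over the root of the F statistic. The steps were tested on simulated counts. Alternatives were DESeq2 1.42.0, RLE scaling, no filter, a minimum 1.2-fold change, only the libraries compared, removal of a trend with exon length, each library left out, and 2 ask1 libraries left out together. The alternatives for the wider list's counts and for 4 CDK inhibitor genes and WEE1 were added after seeing the data.

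A count of 0 allows up to 3 reads, 0.128 to 0.218 CPM, and covers counting error only. Names, exon lengths and positions came from the RefSeq TAIR10.1 annotation, in which 32835 of the 33602 identifiers were found. Upstream windows were read from its genome in Python 3.11.15, and figures were drawn with matplotlib 3.10.9. The members, gene lists and tests were chosen with earlier results of these data known, so no list is independent evidence. Values in every library are given for the 12 called genes with the largest change against ASK1 WT in open flowers, for genes whose ask1 effect differed between tissues, for the extremes and the most abundant gene of each role, and for others that the text describes. Wider-list genes were named by the smaller of their changes where called in 1 direction against both controls, up to 8 a tissue, plus 5 regulators. Those 4 inhibitor genes and WEE1 were named after their values were seen.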

Additional observations from a re-analysis of the deposited data

Results flagged for a closer look

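The effect of ask1 differed between open flowers and buds, by an interaction test in edgeR (adjusted p over all genes), for the genes below. Each value is the log2 fold change in open flowers minus that in buds, and all are negative. All rest on 2 libraries a group.

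Against ASK1 WT it was -1.43 ± 0.22 for CYCA2;4 (SE, adjusted p = 0.00563), -1.28 ± 0.17 for CDT1A (adjusted p = 0.00295) and -1.05 ± 0.19 for HIK (adjusted p = 0.0102). CDKB2;1 had -0.75 ± 0.18 (adjusted p = 0.0321). Of the helicase subunits, MCM6 had -1.1 ± 0.22 (adjusted p = 0.0171), MCM5 -0.89 ± 0.18 (adjusted p = 0.0166), MCM3 -0.77 ± 0.17 (adjusted p = 0.0254), MCM7 -0.69 ± 0.17 (adjusted p = 0.0396) and MCM4 -0.68 ± 0.17 (adjusted p = 0.0372). MCM2 had -0.88 (adjusted p = 0.0753). In the wider list, CYCB3;1 had -1.49 ± 0.25 (adjusted p = 0.00867) and ORC6 -1.36 ± 0.27 (adjusted p = 0.0163).

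Against Col-0 it was -1.35 ± 0.22 for CYCA2;4 (adjusted p = 0.00903), -1.27 ± 0.31 for AUR2 (adjusted p = 0.0437) and -1.06 ± 0.19 for HIK (adjusted p = 0.0129). MCM6 had -0.96 ± 0.22 (adjusted p = 0.0352), MCM3 -0.8 ± 0.17 (adjusted p = 0.0267) and MCM4 -0.66 ± 0.17 (adjusted p = 0.0496). CYCB3;1 had -1.26 ± 0.25 (adjusted p = 0.0214) and ORC6 -1.27 ± 0.27 (adjusted p = 0.0266). Both comparisons share the ask1 libraries.

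Outside the wider list, most of these calls were lost when some single library was left out, as given with the interaction test above. AUR2 lost its call with the exon-length trend removed (-1.19, adjusted p = 0.0616). HIK, MCM3 and MCM4 lost theirs against both controls under the same removal, with the values given above. The replicates of ask1 open flowers differ in that trend, and its part in these differences was not tested beyond its removal.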

How the results depend on the processing

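Of 11076 single-gene values under the alternatives, 392 newly passed and 572 no longer passed. The sign turned in 330 values called in neither fit, whose reported size was at most 0.44, among them MCM genes in buds. It turned in 6 values that were called in an alternative, all of PCNA2: in open flowers against ASK1 WT it was 0.27 without replicate 2 of ask1 open flowers and -0.74 without replicate 1. In ask1 open flowers against buds it was 0.44 without replicate 2, -0.57 without replicate 1 and -0.66 with ask1 bud replicate 2 also left out. Its tissue difference was 0.38 and -0.69 against ASK1 WT without replicate 2 and 1, and against Col-0 0.54 and -0.54, or -0.63 with both left out.

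The count of the 41 genes called moved by over 1.5 times as follows. With only the libraries compared, ask1 against ASK1 WT gave 8 in open flowers and 6 in buds, ask1 against Col-0 gave 6 and 5, and ASK1 WT against Col-0 gave 1 in buds. Open flowers against buds then gave 15 (ask1), 19 (ASK1 WT) and 21 (Col-0), so ask1 had the fewest calls instead of the most. Over all genes the ask1 tissue count was then 3468 instead of 8248, while those of the controls moved by no more than 1.5 times. The tissue difference in that fit gave 3 and 2 of the 41, with 513 and 251 of all genes instead of 1492 and 1086. With the exon-length trend removed, bud counts were 5 and 6 against the controls and 1 between them, Col-0 open flowers against buds gave 15, and the tissue difference against ASK1 WT gave 15. Without ask1 bud replicate 2 and ask1 open flower replicate 1 together, buds gave 8 and 6, and 1 between the controls, Col-0 tissues 16 and the tissue differences 23 and 22. A minimum 1.2-fold change gave 4 and 4 for the tissues in ASK1 WT and Col-0 and 5 and 2 for the tissue differences. No filter gave 6 for ASK1 WT tissues and 10 for the tissue difference against Col-0, and DESeq2 gave 10 for that difference and 1 for ASK1 WT against Col-0 buds. Counts over all genes moved as well. With only the libraries compared they were 2109 and 1653 for ask1 in open flowers, instead of 6559 and 5953, but moved by no more than 1.5 times in buds. Between the controls in buds that fit gave 748 instead of 70. For the tissue difference against ASK1 WT, removal of the length trend gave 2550 of all genes and a minimum fold change 983. Against Col-0 the minimum fold change gave 720 and DESeq2 1763. The causes were not tested.

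Leaving out 1 library gave 18 to 30 (open flowers) and 1 to 9 (buds) against ASK1 WT, 14 to 26 and 2 to 11 against Col-0, 0 to 0 and 0 to 1 between the controls, 22 to 32, 3 to 18 and 3 to 22 for the tissues (ask1 first, then each control, Col-0 last), and 2 to 23 and 0 to 21 for the tissue differences. The wider list's count was 36 in open flowers against ASK1 WT (9 with only the libraries compared, 18 to 50 without 1 library) and 33 against Col-0 (5, 18 to 47). In buds it was 9 against ASK1 WT (16 with the length trend removed, 21 with 2 libraries out, 16 with only the libraries compared, 5 to 22 without 1) and 10 against Col-0 (5 with a minimum fold change, 20 with 2 libraries out, 2 to 23 without 1). Counts over all genes also moved in such fits, so a moved count alone is not a result about the listed genes. Without 1 library, the share of the 41 called in ask1 open flowers was above that of all genes in 12 fits against ASK1 WT and 11 against Col-0. In buds it was above in 0 fits against either control. No paired analysis was possible because the labels give library codes and no replicate numbers that groups share. With 2 libraries a group, low genes such as CYCA2;1, at 12 to 39 reads, have wide errors.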
